A study of Mus musculus with 8 samples.

Results

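Platelet alpha-granules are the largest secretory compartment of platelets, and megakaryocytes (MKs) make and pack most of their cargo before proplatelets form. The cargo was followed here through 7 genes, taken by gene symbol from the deposited count table and not ranked by their measured values. Earlier results of these data were known when the genes were chosen. The list holds the chemokines Pf4 and Ppbp, the matrix glycoprotein Thbs1, the adhesion receptor Selp, the proteoglycan Srgn, the factor V carrier Mmrn1 and the secreted chaperone Clu. All 7 were present among the 13387 genes of the table, and all 7 were among the 11722 genes that passed edgeR's filter on low counts. In the cocultures Thbs1 was called higher, Srgn and Mmrn1 were called lower, and Pf4, Ppbp, Selp and Clu were not called, so the cargo genes did not move as one group.

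The libraries were made from wild-type C57BL/6 mouse bone marrow cells held for 18 hours as MKs alone (no treatment, 4 libraries) or as MKs with MSCs (4 libraries), where the MSCs had been sorted as CD45-Ter119-CD31-CD51+CD140a+ cells. The labels describe MKs separated from platelets, whereas the paper's methods name platelets as the source of the RNA, and the values below are those of the deposited libraries. According to the methods, all cultures received thrombopoietin, MKs were enriched with CD41 beads and not sorted, cells in suspension were taken off the adherent MSCs by hand, and several wells were pooled per library. The labels give no age and do not tie a library to one animal, although the paper counts mice, so p-values measure the spread between these libraries. Totals ran from 4939874 to 12523616 counts.

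As a check of the label, 16 MK and platelet marker genes other than the cargo genes were summed in CPM (counts per 1e+06 counts of a library, with library totals scaled by edgeR's TMM factors). The sums ran from 1569 to 1870 CPM in MKs cultured alone and from 643 to 1080 CPM in cocultures, and the groups did not overlap. Genes of other marrow cells were present in both groups. A list of 10 neutrophil genes summed to between 79419 and 82538 CPM in MKs alone and to between 4513 and 9763 CPM in cocultures, and 10 MSC genes to between 14.9 and 19.5 CPM and between 1727 and 4971 CPM. Replicate 3 of the cocultures stood apart, where 1012 genes had no count although all other libraries held 10 or more, and no other library had more than 4 such genes, so values are also given without it. In bulk libraries, fewer cells of a type and less RNA per cell cannot be told apart.

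Alpha-granules carry chemokines, adhesive proteins and growth factors that are released when a platelet is activated. Pf4 (CXCL4) and Ppbp, whose product is processed to CXCL7, are small chemokines made almost entirely by the MK lineage, and serglycin, the product of Srgn, is the sulfated core on which Pf4 and other basic proteins are held in the granule. P-selectin, the product of Selp, lies in the granule membrane and reaches the platelet surface on activation, where the paper measured it as CD62P.

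A gene was called when its fold change was at least 2, its edgeR adjusted p at most 0.05 and its mean at least 1 CPM in at least 1 group. Of the 7 cargo genes, 1 was called higher and 2 lower. Over all genes tested, 13.2% were called higher, 7.31% lower and 20.5% in either direction. The CPM of MKs alone and of cocultures did not overlap for the same 3 cargo genes, 1 higher and 2 lower. Over all genes, groups without overlap made up 40.3%, with 19.3% higher and 21.1% lower. The median log2 fold change was 0.35 for the 7 genes and 0.034 for all genes tested.

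**Figure D1:**
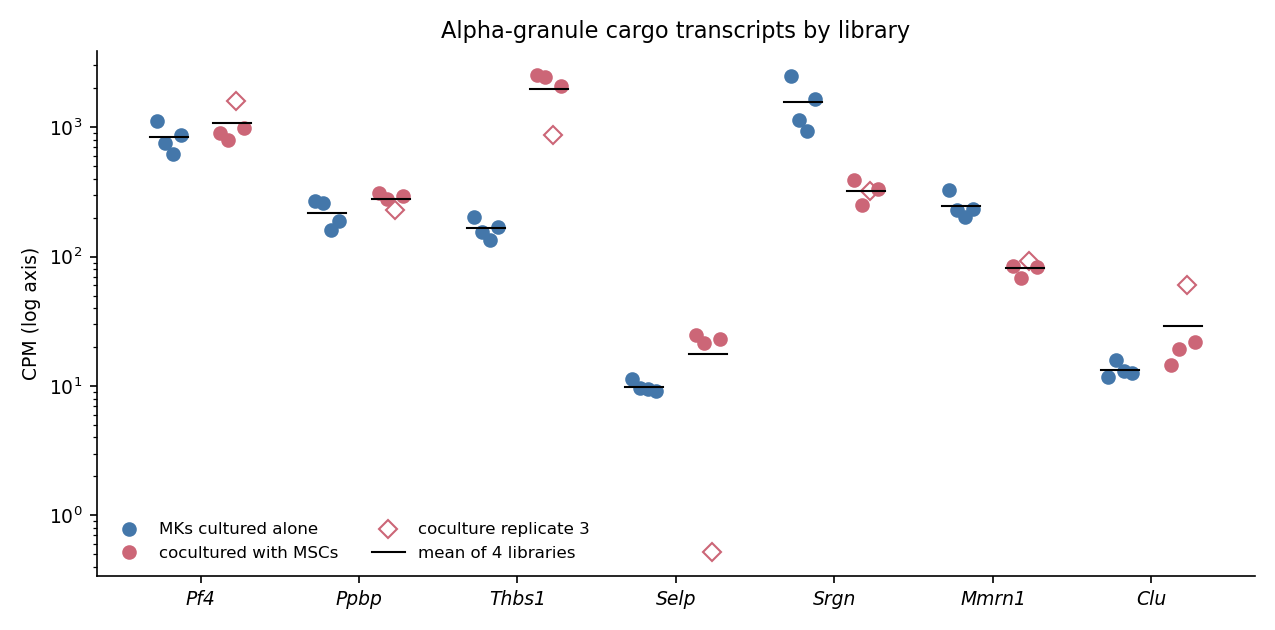
Level of the 7 cargo transcripts in each library, in CPM on a log axis, with MKs cultured alone in blue, cocultures in red, replicate 3 of the cocultures as an open diamond and lines at the mean of 4 libraries. Thbs1 lies between 134 and 202 CPM in MKs alone and between 865 and 2549 CPM in cocultures, the 4 cocultures lie below all libraries of MKs alone for Srgn and Mmrn1, and Selp falls to 0.52 CPM in the open diamond.

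Pf4 and Ppbp, the platelet chemokines, lie beside each other in the CXC chemokine cluster of chromosome 5 (GRCm38), Ppbp at chr5:90768518-90770063 and Pf4 at chr5:90772435-90773383, both on the plus strand with 2371 bases between them. Their promoters are shown because the 2 neighbours had nearly the same log2 fold change on all 8 libraries, 0.35 for each. This likeness rested on replicate 3 of the cocultures, since without it the values were 0.068 for Pf4 and 0.42 for Ppbp. Neither gene was called in either fit. Each run spans 250 bases before to 50 after the RefSeq start on GRCm38.p6, at chr5:90772185-90772484 for Pf4 and chr5:90768268-90768567 for Ppbp. Capitals mark matches to GATA motifs (AGATAA or TGATAA), ETS motifs (AGGAAG or CGGAAG), both searched on either strand, the TATA motif TATAAA on the gene's strand, and the CArG box of serum response factor. No matches overlapped each other.
Pf4: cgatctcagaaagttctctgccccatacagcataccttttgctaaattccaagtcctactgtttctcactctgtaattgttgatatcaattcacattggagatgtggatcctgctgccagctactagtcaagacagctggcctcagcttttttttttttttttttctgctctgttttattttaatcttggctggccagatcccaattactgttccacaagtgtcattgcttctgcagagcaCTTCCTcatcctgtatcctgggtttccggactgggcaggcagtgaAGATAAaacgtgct
Ppbp: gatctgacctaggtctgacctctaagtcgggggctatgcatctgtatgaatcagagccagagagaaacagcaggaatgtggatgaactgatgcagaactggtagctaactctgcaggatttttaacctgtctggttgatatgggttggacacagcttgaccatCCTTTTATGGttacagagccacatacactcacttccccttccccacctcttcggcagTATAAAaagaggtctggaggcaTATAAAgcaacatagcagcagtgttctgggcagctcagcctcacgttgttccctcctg
The Pf4 promoter held 1 GATA match at position 37, counted from 1 at the start site, and 1 ETS match, read on the opposite strand, at position -9. The Ppbp promoter held 2 TATA matches and 1 CArG box at position -87, and neither a GATA nor an ETS match by these letters. Among the 32851 RefSeq promoters of the same length, 18.6% held a GATA match, 46.5% an ETS match, 8.32% a TATA match and 1.63% a CArG box.

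Pf4 had 1116, 753, 623 and 874 CPM in replicates 1 to 4 of MKs alone, and 902, 795, 1601 and 983 CPM in replicates 1 to 4 of the cocultures. The ranges overlapped, and only replicate 3 of the cocultures lay above the highest library of MKs alone. The means were 841 ± 210 CPM (SD, n = 4) in MKs alone and 1070.3 ± 362 CPM (SD, n = 4) in cocultures. The log2 fold change was 0.35 with an SE of 0.28 (edgeR adjusted p = 0.409), with a 95% interval of 0.82-fold to 1.97-fold, and 0.068 without replicate 3 of the cocultures (edgeR adjusted p = 0.792).

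Ppbp had 268, 258, 159 and 189.5 CPM in MKs alone, and 313, 281, 229 and 294 CPM in cocultures. Replicates 1, 2 and 4 of the cocultures lay above every library of MKs alone, and replicate 3 did not. The means were 219 ± 52.9 CPM (SD, n = 4) and 279 ± 35.6 CPM (SD, n = 4). The log2 fold change was 0.35 with an SE of 0.22 (edgeR adjusted p = 0.282), with a 95% interval of 0.91-fold to 1.80-fold. Without replicate 3 of the cocultures it was 0.42 (edgeR adjusted p = 0.0779). For neither chemokine did the interval reach a 2-fold change in either direction, and a p that misses the threshold does not show that the levels were alike.

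The other CXC chemokine genes of this cluster encode inflammatory chemokines that attract neutrophils. Cxcl5 lies 6893 bases before Ppbp, and Cxcl3, Cxcl1 and Cxcl2 follow Pf4. All 3 of these that were tested were called higher, where 13.2% of all genes were. Their log2 fold changes were 4.42 for Cxcl3 (SE 1.09, edgeR adjusted p = 0.0197), 4.0 for Cxcl5 (SE 1.25, edgeR adjusted p = 0.0483) and 2.65 for Cxcl2 (SE 0.71, edgeR adjusted p = 0.0266). Cxcl1 had a mean of 11.2 CPM in cocultures and 1 count over the libraries of MKs alone and was not tested on all 8 libraries. It was at 0 CPM in replicate 3 of the cocultures. Without that library Cxcl1 was tested and called higher (log2 fold change 8.20, edgeR adjusted p = 1.43e-08), where 20.6% of all genes were. The levels of the neighbours were low, with mean values in cocultures of 68.2 CPM for Cxcl5, 5.70 CPM for Cxcl3 and 11.8 CPM for Cxcl2. Without replicate 3 of the cocultures, where Cxcl3 was at 13.9 CPM against 1.61, 1.56 and 5.72 CPM in the others, its log2 fold change was 3.34. Cxcl5 was at 0.314 CPM in replicate 3 of the cocultures, below its mean of 4.31 CPM in MKs alone.

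Thbs1 (chr2:118111876-118127133, plus strand) encodes thrombospondin 1, an adhesive glycoprotein that platelets release from alpha-granules and that stromal cells and macrophages also make. It had 202, 155, 134 and 171 CPM in MKs alone, and 2549, 2421, 865 and 2088 CPM in cocultures. Every coculture lay above every library of MKs alone, and replicate 3 was the lowest coculture. The means were 165 ± 28.5 CPM (SD, n = 4) and 1981 ± 769 CPM (SD, n = 4). Thbs1 was called 11.97-fold higher, with a log2 fold change of 3.58 and an SE of 0.36 (edgeR adjusted p = 0.000201), and the call held with each library left out in turn, at log2 fold changes from 3.44 to 3.81. Among all genes, ranked by CPM per kilobase of exon, it moved from rank 1807 in MKs alone to rank 148 in cocultures, or 94 without replicate 3.

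Most single markers of cells that also express Thbs1 were called higher, while the macrophage sum was not higher. All 8 tested MSC markers were called higher, where 13.2% of all genes were. Col3a1, a fibrillar collagen, had 1 count over all libraries of MKs alone and a mean of 277 CPM in cocultures. Of the 11 macrophage markers tested, 10 were called higher, while Lyz2, which holds most of that list's signal, had a mean of 15030.4 CPM in MKs alone and 9369.6 CPM in cocultures, under the fold required for a call. Their summed level was 12743 to 17643 CPM in MKs alone and 9739 to 11760 CPM in cocultures, and Marco was at 0 in every library of MKs alone. Within the cocultures the MSC marker sum was 4203, 4971, 1727 and 3817 CPM, lowest in replicate 3 as Thbs1 was. The part of these cells in the Thbs1 level was not tested. The related gene Thbs2, a thrombospondin of fibroblasts, was called higher as well, from 2.70 ± 0.538 CPM to 238 ± 36.9 CPM (SD, n = 4 each).

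Selp (chr1:164115264-164150026, plus strand) had 11.3, 9.59, 9.43 and 9.11 CPM in MKs alone, and 24.9, 21.5, 0.52 and 23.2 CPM in cocultures. In replicates 1, 2 and 4 of the cocultures it lay above every library of MKs alone, and in replicate 3 it lay below all of them. That library had 5 Selp counts, against at least 51 in any other library, with an exact Poisson interval of 0.17 to 1.22 CPM that covers counting error only. The means were 9.84 ± 0.96 CPM (SD, n = 4) and 17.5 ± 11.4 CPM (SD, n = 4). The log2 fold change was 0.83 with an SE of 0.86 and was not called (edgeR adjusted p = 0.530). Without replicate 3 of the cocultures it was 1.22 with an SE of 0.22 and was called higher (edgeR adjusted p = 0.000212), from 9.84 ± 0.96 CPM to 23.2 ± 1.72 CPM (SD, n = 3), so this library decides the call. In that refit 20.6% of all genes were called higher.

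Endothelial cells also hold P-selectin, in Weibel-Palade bodies. Of the 8 endothelial markers in the table, 5 were tested, 1 was called lower (Tek, an angiopoietin receptor also found on blood progenitors) and the other 4 were not called. Over all genes 7.31% were called lower. Without replicate 3 of the cocultures 2 of the 5 were called lower, Tek and Kdr, against 15.4% of all genes. In replicate 3 of the cocultures 5 of the 8 were at 0. The endothelial sum was 70.0 to 75.0 CPM in MKs alone and 13.8 to 41.0 CPM in cocultures, and Cdh5, the endothelial cadherin, had a mean of 0.402 CPM in MKs alone and 0, 0.388, 2.61 and 0.689 CPM in the cocultures, with a mean of 0.922 CPM, or 0.359 CPM without replicate 3. The part of endothelial cells in the Selp level was not tested. Exons of Selp overlap 2 genes on the opposite strand and exons of Thbs1 overlap 1, and whether strand was used in quantification is not given in the sources used here.

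Srgn (chr10:62493833-62527451, minus strand) encodes serglycin, which is also the granule proteoglycan of neutrophils and mast cells. It had 2494, 1146, 940 and 1647 CPM in MKs alone, and 388, 249, 322 and 334 CPM in cocultures. Every coculture lay below every library of MKs alone, and replicate 1 of MKs alone was the highest. The means were 1557 ± 692 CPM (SD, n = 4) and 323 ± 57.1 CPM (SD, n = 4). Srgn fell 4.82-fold, with a log2 fold change of -2.27 and an SE of 0.33 (edgeR adjusted p = 0.00148), and remained called with each library left out, from -2.47 to -1.96.

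Markers of granulated leukocytes moved in the same direction. All 10 neutrophil markers were called lower, where 7.31% of all genes were. Among them were Mpo, the myeloperoxidase of azurophil granules, with a log2 fold change of -4.63, and Elane, neutrophil elastase, with -4.43. Of 6 mast cell and basophil markers, 4 were called lower, with Ms4a2, a chain of the IgE receptor, at -4.97 and Cpa3, a mast cell protease, at -4.26. The sum of the mast cell and basophil list was 1043 to 1194 CPM in MKs alone and 104 to 259 CPM in cocultures. Of 8 B cell markers 4 were called lower, with Ms4a1 (CD20) the highest, and the 4 erythroid markers tested were not called. With replicate 3 of the cocultures left out, 6 of the 8 B cell markers and 2 of the 4 erythroid markers were called lower, the latter being Klf1 and Hbb-bs, which was at 53.6 CPM in that library and between 1.04 and 3.89 CPM in the other cocultures. In that refit 15.4% of all genes were called lower. The part of any of these cells in the fall of Srgn was not tested.

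Mmrn1 (chr6:60924976-60989378, plus strand) encodes multimerin 1, a large polymer that binds factor V in the granule. It had 325, 229, 201 and 233 CPM in MKs alone, and 85.3, 67.7, 92.9 and 82.6 CPM in cocultures. Every coculture lay below every library of MKs alone. The means were 247 ± 54.0 CPM (SD, n = 4) and 82.1 ± 10.6 CPM (SD, n = 4). Mmrn1 fell 3.01-fold, with a log2 fold change of -1.59 and an SE of 0.21 (edgeR adjusted p = 0.000812), and it was called with each library left out, from -1.69 to -1.44. The related genes Emilin1 and Emilin2 were not called, at 0.40 and -0.48 (SE 0.26 and 0.24, edgeR adjusted p = 0.297 and 0.185).

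The promoters of the 2 cargo genes that fell are shown with the same capitals, at chr10:62527396-62527695 on the minus strand for the first RefSeq start of Srgn and at chr6:60944067-60944366 on the plus strand for Mmrn1, each read 5′ to 3′ on the gene's strand. The Mmrn1 span given above is that of GENCODE, and the RefSeq start used here lies inside it.
Srgn: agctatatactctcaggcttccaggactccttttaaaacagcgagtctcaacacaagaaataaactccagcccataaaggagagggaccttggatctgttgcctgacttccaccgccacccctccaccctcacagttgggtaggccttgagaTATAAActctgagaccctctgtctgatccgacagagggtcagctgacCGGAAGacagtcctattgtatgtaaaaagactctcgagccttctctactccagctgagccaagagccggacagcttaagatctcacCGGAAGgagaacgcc
Mmrn1: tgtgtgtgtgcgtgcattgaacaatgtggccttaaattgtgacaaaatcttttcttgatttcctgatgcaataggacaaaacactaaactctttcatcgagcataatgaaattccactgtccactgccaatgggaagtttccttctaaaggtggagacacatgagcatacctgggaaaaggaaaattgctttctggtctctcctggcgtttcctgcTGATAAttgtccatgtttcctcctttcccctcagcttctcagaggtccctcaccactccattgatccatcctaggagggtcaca
The Srgn promoter shown held 2 ETS matches, both CGGAAG on the gene's strand, 1 TATA match and no GATA match. The promoter of another RefSeq start of Srgn, at chr10:62507708-62508007, held no match to any of these motifs. The Mmrn1 promoter held 1 GATA match at position -34 and no ETS match. These are matches of letters, and their shares among all promoters are those given above for Pf4 and Ppbp.

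Clu (chr14:65968483-65981547, plus strand) encodes clusterin, an extracellular chaperone that platelets store and many stromal cells secrete. It had 11.7, 16.0, 12.97 and 12.5 CPM in MKs alone, and 14.4, 19.4, 59.9 and 22.03 CPM in cocultures. The groups overlapped through replicate 1 of the cocultures, and replicate 3 was the highest. The means were 13.3 ± 1.86 CPM (SD, n = 4) and 28.9 ± 20.9 CPM (SD, n = 4). The log2 fold change was 1.12 with an SE of 0.50 and was not called (edgeR adjusted p = 0.139). Without replicate 3 of the cocultures it was 0.45 (edgeR adjusted p = 0.123).

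**Figure D2:**
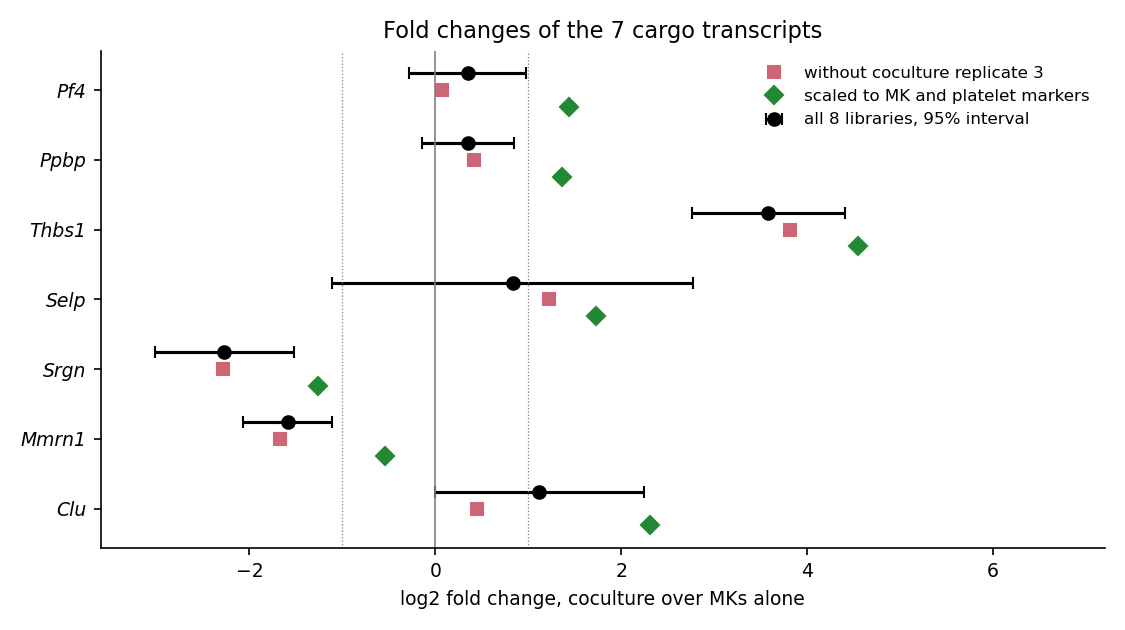
Log2 fold change of each cargo transcript in cocultures over MKs alone, with the 95% interval of the edgeR fit on all 8 libraries (black), and the values without replicate 3 of the cocultures (red) and scaled to MK and platelet markers (green), where dotted lines mark a fold change of 2. The intervals of Thbs1, Srgn and Mmrn1 stay clear of 0, that of Selp is the widest, and the marker scaling moves every gene to the right, for Mmrn1 from -1.59 to -0.54.

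Compared per kilobase of exon, the order of the 7 transcripts was the same in all 4 libraries of MKs alone, from Pf4 through Srgn, Ppbp, Mmrn1, Thbs1 and Clu to Selp. The mean levels per kilobase were 1167 CPM for Pf4, 709 CPM for Srgn, 202 CPM for Ppbp, 42.1 CPM for Mmrn1, 27.2 CPM for Thbs1, 3.87 CPM for Clu and 2.23 CPM for Selp. Neighbours in this order did not overlap between libraries, except Pf4 and Srgn, where Pf4 was still higher in 4 of 4 libraries. In the cocultures the order by mean was Pf4 (1485 CPM per kilobase), Thbs1 (326), Ppbp (258), Srgn (147), Mmrn1 (14.0), Clu (8.42) and Selp (3.98). The ranges of Thbs1 and Ppbp, of Mmrn1 and Clu, and of Clu and Selp overlapped there, and without replicate 3 only those of Clu and Selp did. Pf4 remained the highest cargo transcript in all 8 libraries and had rank 31 among all genes in MKs alone and rank 22 in cocultures.

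Together the 7 genes held from 0.214% to 0.406% of all counts in MKs alone and from 0.242% to 0.450% in cocultures, so the total overlapped while its makeup differed. Srgn held 44.6% to 56.3% of the counts on the 7 genes in MKs alone and 6.46% to 10.2% in cocultures. Thbs1 held 4.56% to 6.46% in MKs alone, 54.6% to 62.8% in replicates 1, 2 and 4 of the cocultures and 27.3% in replicate 3, where Pf4 held 50.5%. Counts are not scaled to gene length in these shares, and per kilobase Thbs1 held 1.10% to 1.47% of the 7-gene sum in MKs alone and 5.17% to 21.0% in cocultures.

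**Figure D3:**
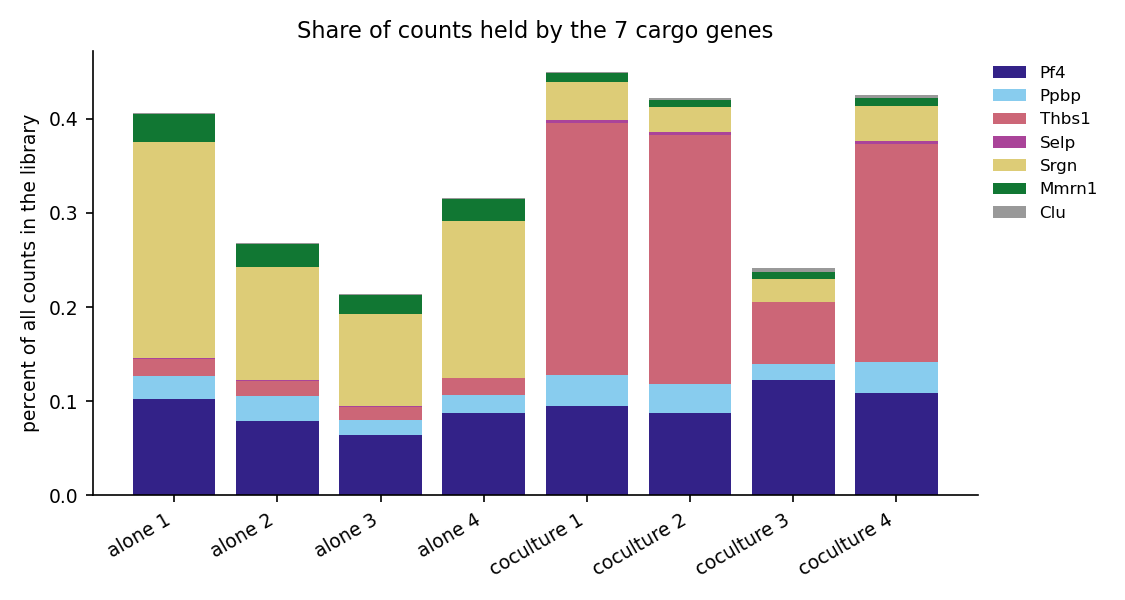
Percent of all counts held by each of the 7 cargo genes in each library, stacked. The totals of the 2 groups overlap, while Srgn (yellow) is the largest part of each bar in MKs alone and Thbs1 (red) in replicates 1, 2 and 4 of the cocultures.

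Since the MK and platelet marker sum was lower in cocultures, each cargo gene was also set against that sum in the same library. The mean sum was 1731 CPM in MKs alone and 863 CPM in cocultures, a ratio of 0.498. Of the 15 markers tested, 1 was called lower (Nfe2, a transcription factor of proplatelet formation) and 4 had positive log2 fold changes, with a median of -0.47. Over all genes 7.31% were called lower. Leaving out replicate 3 of the cocultures, 4 of the 15 were called lower (Nfe2, Gata1, Gp1ba and Gp6), where 15.4% of all genes were. When the libraries were scaled to these markers themselves, 2 of the markers were called higher and 1 lower, against 38.6% and 2.47% of all genes. Itgb3, the integrin beta3 chain and the highest of these markers, had 392 ± 50.8 CPM in MKs alone and 171 ± 91.0 CPM in cocultures (SD, n = 4 each, edgeR adjusted p = 0.110). Mean levels went from 372 to 56.3 CPM for Nfe2 and from 251 to 106 CPM for Rab27b. Gp5 had means of 71.7 and 75.6 CPM and Clec1b of 33.2 and 43.8 CPM, so the markers did not fall alike. The sum weighs its highest genes most and is not by itself a measure of MK content.

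Per unit of marker sum, Pf4 ran from 0.345 to 0.711 in MKs alone and from 0.903 to 2.49 in cocultures, and Ppbp from 0.0881 to 0.171 and from 0.272 to 0.369, without overlap for either. The marker sum was lower in every coculture, so a gene of unchanged CPM rises in this ratio. The share of all genes whose ratios do not overlap was not computed. Mmrn1 ran from 0.111 to 0.207 in MKs alone and from 0.0764 to 0.144 in cocultures, so its ratio overlapped, and Srgn from 0.521 to 1.59 and from 0.283 to 0.500. When libraries were scaled to these markers in the fit, Pf4 (log2 fold change 1.44, edgeR adjusted p = 0.0201), Ppbp (1.37, edgeR adjusted p = 0.00420) and Clu (2.31, edgeR adjusted p = 0.0148) were called higher, and Mmrn1 was no longer called (-0.54, edgeR adjusted p = 0.195). That scaling moved the median of all genes from 0.034 to 1.07 and the share of calls that were higher from 64.3% to 94.0%, and with it 38.6% of all genes were called higher and 2.47% lower. With it 9 of the 10 neutrophil markers, 2 of the 6 mast cell and basophil markers and 2 of the 8 B cell markers were called lower, and all 8 MSC markers higher. Relative to that median the cargo genes lay at 0.37 for Pf4, 0.30 for Ppbp, 3.48 for Thbs1, 0.66 for Selp, -2.32 for Srgn, -1.61 for Mmrn1 and 1.24 for Clu. Taking off the median largely undoes the scaling, so these values lie near those of the main fit by construction. With marker scaling and without replicate 3 of the cocultures, Pf4 was at 0.96, under the fold required, and not called. Thbs1 (4.73), Ppbp (1.33), Clu (1.36) and Selp (2.14) were called higher there, where 5796 of 12267 genes were.

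**Figure D4:**
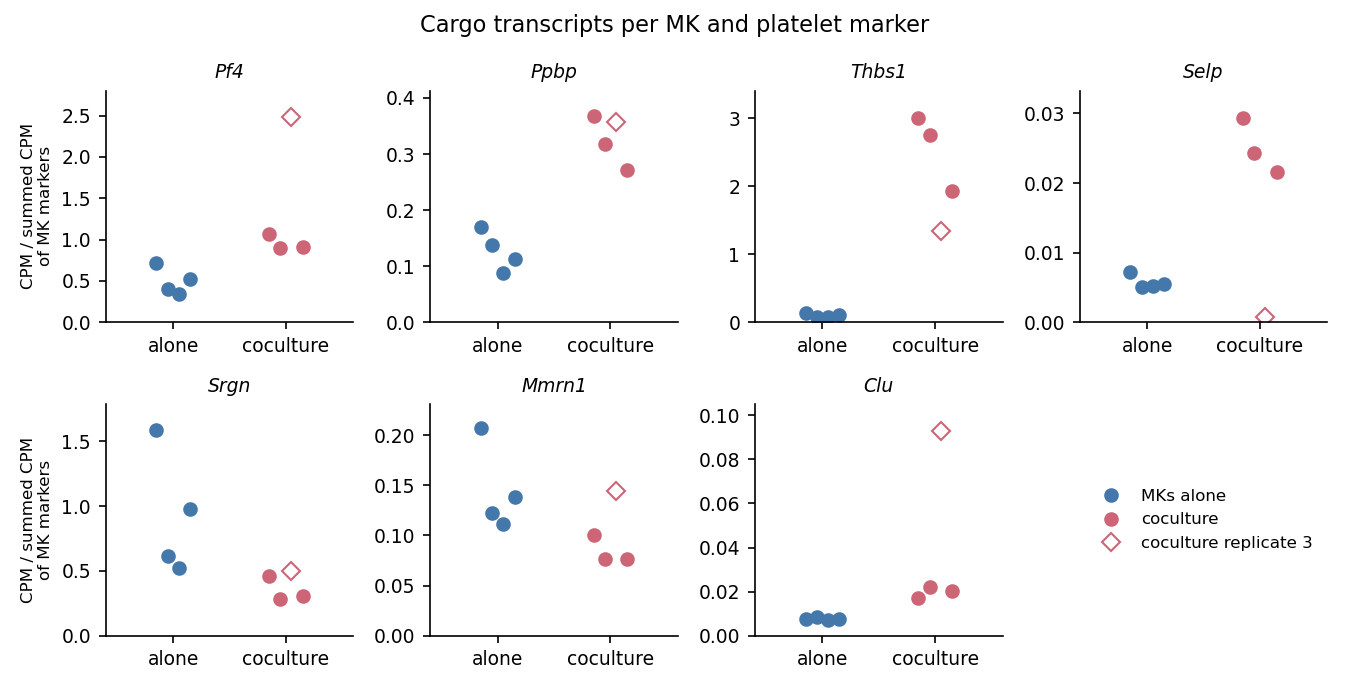
CPM of each cargo transcript divided by the summed CPM of 16 MK and platelet markers in the same library, for MKs cultured alone (blue) and cocultures (red, with replicate 3 as an open diamond). Pf4, Ppbp, Thbs1 and Clu lie higher in all 4 cocultures than in any library of MKs alone, Srgn lies lower in all 4, and Mmrn1 overlaps. The marker sum is lower in all 4 cocultures, which raises the ratio of a gene of unchanged CPM, and no share over all genes was computed.

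Other soluble alpha-granule proteins were taken from a list of 30 genes, of which 25 were in the table and tested. Of these, 15 were called higher and 1 lower, with a median log2 fold change of 1.73, against 13.2% and 7.31% of all genes and a median of 0.034. The 2 largest rises were those of Timp1, a metalloproteinase inhibitor with 3 counts over all libraries of MKs alone and a mean of 352 CPM in cocultures, and Sparc, a collagen-binding glycoprotein that is also on the MSC list, with 13 counts and 963 CPM. Of the 15 genes called higher, 6 had a mean under 1 CPM in MKs alone. The gene called lower was F13a1, the coagulation factor XIII A chain of platelets and macrophages, from 319.9 ± 58.2 CPM to 35.4 ± 26.0 CPM (SD, n = 4 each). With the marker scaling 17 of the 25 were called higher, against 38.6% of all genes, and F13a1 was not called, where 2.47% of all genes were called lower. Vwf, which is on this list and also among the markers that set the scaling, was not called with it. When replicate 3 of the cocultures was left out, 18 of the 25 were called higher, against 20.6% of all genes, and 2 lower, against 15.4%.

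Of 9 proteins of the granule membrane, 2 were called higher and the other 7 were not called, against 13.2% of all genes called higher, and the median log2 fold change was -0.26. With the marker scaling 3 were called higher, against 38.6% of all genes. Treml1, Itga2b, Itgb3 and Gp9 are on this list and also among the markers that set the scaling, and were not called with it. Without replicate 3 of the cocultures Pecam1, an adhesion molecule of platelets and endothelium, was called lower (log2 fold change -2.05, edgeR adjusted p = 4.82e-07). The 2 called higher on all 8 libraries were Lrrc32, the anchor of latent TGF-beta, and Cd36, a thrombospondin receptor also carried by macrophages. Lrrc32 rose from a mean of 1.04 CPM to 157 CPM but was at 0.209 CPM in replicate 3 of the cocultures. Cd36 rose from 37.1 ± 9.30 CPM to 1030.4 ± 430.0 CPM (SD, n = 4 each). Cd63, the tetraspanin of granule membranes and the highest of this list, had 953 ± 170.4 CPM in MKs alone and 1309.7 ± 91.9 CPM in cocultures (SD, n = 4 each) and was not called (edgeR adjusted p = 0.113).

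Among 14 receptors and binding partners of the cargo, 4 were called higher and 3 lower, against 13.2% and 7.31% of all genes, with a median log2 fold change of -0.63. Lrp1, an endocytic receptor that takes up thrombospondin 1, rose by 4.91 on the log2 scale and Trem2, a myeloid receptor that binds clusterin, by 4.80 (4.0 without replicate 3 of the cocultures, which held 87.6 CPM). Cxcr2, the neutrophil receptor for the Ppbp product CXCL7, fell by 3.29, and Selplg, the P-selectin ligand of leukocytes, fell by 1.41. Cd47, the highest of the list and a thrombospondin receptor of most cells, fell from 765 ± 101 CPM to 328 ± 53.9 CPM (SD, n = 4 each). Scaled to MK and platelet markers, 5 of the 14 were called higher and 1 lower, against 38.6% and 2.47% of all genes. Cd47, Selplg and Itgb3 were not called with that scaling, and Itgb3 is itself among the markers that set it.

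**Figure D5:**
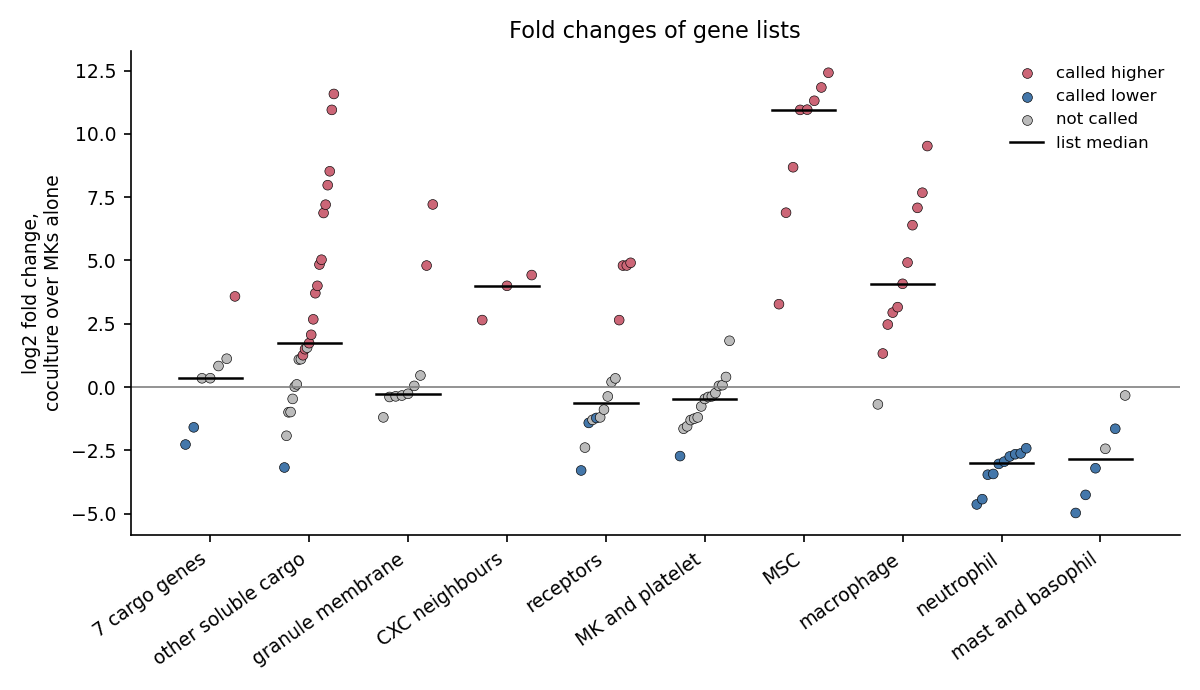
Log2 fold change of every tested gene of 10 lists in cocultures over MKs alone, with genes called higher in red, called lower in blue and not called in grey, and a line at each list's median. The 7 cargo genes spread to both sides of 0, while all tested MSC markers lie above 0 and all neutrophil markers below it.

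The genes nearest in profile to each cargo gene were sought among 8988 genes with a mean of at least 10 CPM, by the root mean square difference of log2(CPM + 1) after centering over the 8 libraries. This is a description over 8 libraries that fall into 2 groups. Nearest to Srgn were St8sia4 and Stk26, at differences of 0.13 and 0.14, and Dach1 at 0.22. Nearest to Mmrn1 were Pdcd4 and Gsdme, both at 0.12, and Mgst1 at 0.13. Thbs1 had Tspan6 and Rnase4, both at 0.20, and Pcdh7 at 0.22. Each of these 9 genes was called in the same direction as its cargo gene. Genes picked by profile share most of their cargo gene's change by construction, so the calls of nearest genes are no further result. Pf4 was closest to 0610009B22Rik, Brix1 and Ccdc59, Ppbp to Mex3c, Otud6b and Slc39a10, Selp to Phf13, Rcbtb1 and Cldn12, and Clu to 0610037L13Rik and Adsl, and these genes were not called. Without replicate 3 of the cocultures, 2 of the 3 genes remained nearest for Pf4 and Srgn, 1 for Ppbp and 0 for Thbs1, Selp, Mmrn1 and Clu.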

How the data were processed

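Bulk RNA of 8 mouse libraries was analysed from a table of raw counts per gene that the authors deposited. Per the methods, libraries were made with a low-input SMART-Seq kit, reads were filtered with fastp, and the authors quantified them with kallisto on an mm10 transcriptome (versions not given in the sources used here). How the deposited counts were summed to genes is not given there either. kallisto divides reads among transcripts by estimation, so counts of overlapping or similar genes are uncertain.

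The groups MKs alone and MKs with MSCs (n = 4 each) were compared with edgeR 4.0.16 in R 4.3.3, using TMM factors, filterByExpr, a robust quasi-likelihood fit over all 8 libraries without covariates, and Benjamini-Hochberg adjustment over 11722 genes. The study's own fit used a batch term, and the batch is not given in the labels. The SE was the log2 fold change over the square root of its F statistic. Totals of 4939874 to 12523616 counts put a floor of 3 counts at 0.284 to 0.662 CPM, and this floor and the Poisson interval of Selp cover counting error only, while the intervals of fold changes come from the edgeR fit and carry the spread between libraries. CPM used TMM-scaled library sizes, and levels per kilobase used the summed exon length of GENCODE vM21 (GRCm38). Promoter sequences were those of RefSeq on GRCm38.p6, where 5 of the 7 genes matched; Thbs1 and Clu are named only.

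The 7 genes and the lists (other soluble cargo, granule membrane, CXC neighbours, related genes, receptors, MK and platelet, MSC, macrophage, neutrophil, mast cell and basophil, endothelial, B cell and erythroid markers) were chosen with earlier results of these data known. Named were the 7 genes, the 3 nearest in profile to each, and in each list up to 2 called genes with the largest changes in each direction and the highest-level gene; other genes (such as Cxcl1, Cxcl2, Cdh5, Lyz2, Pecam1, Klf1, Gata1, Gp1ba, Gp6 and the EMILIN genes) were named after their values were seen. Some genes that this rule names are not reported here. The fit was tested on simulated counts. Alternatives were DESeq2 1.42.0, other scalings and filters, glmTreat, a replicate block and leaving out each library. Marker scaling combined with leaving out replicate 3 of the cocultures was chosen after seeing the data.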

Additional observations from a re-analysis of the deposited data

Results flagged for a closer look

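Replicate 3 of the cocultures gave all 3 values that lay far from the other libraries of their group, among 26 groups of 4 libraries examined by Dixon's criterion, which chance alone passes in about 1 of 20 groups. Selp was at 0.61 on the log2(CPM + 1) scale in that library and between 4.49 and 4.70 in the other cocultures. The neutrophil marker sum was at 12.1 on the log2(CPM + 1) scale, against 13.2 to 13.3 in the other cocultures. The mast cell and basophil marker sum was at 6.72, against 7.86 to 8.02. The cause of the distance of this library was not tested.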

How the results depend on the processing

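Of 132 refits of single cargo genes, 123 kept their direction and side of the threshold, 7 passed it newly, 2 no longer passed it, and 0 reversed. Scaled to MK and platelet markers, 4 of the 7 genes were called higher and 1 lower, and 4820 genes were called in all against 2401. With the same scaling and without replicate 3 of the cocultures the counts were 4, 1 and 6412, where Selp was called higher and Pf4 was no longer called. With glmTreat 1121 genes were called, 1 of the 7 higher and 2 lower. Leaving out each library in turn gave 1 to 2 of the 7 genes higher (2 without replicate 3 of the cocultures, where Selp was added), 2 lower throughout, and 1634 to 4420 genes in all, with 4420 without replicate 3 of the cocultures. With the replicate block 1 of the 7 genes was called higher, 2 lower and 1669 genes in all, so it changed no call of a cargo gene. Of the other genes named as called, Cxcl5, Cxcl2, F13a1, Lrrc32, Nfe2, Tek, Marco and Ms4a1 were not called with it. Deviations of same-numbered libraries correlated at 0.37, 0.020, 0.15 and 0.028, and 4 of 8 libraries correlated best with their own number, so the numbers were not treated as pairs. Selp could not be tested where at least 10 counts were required in every library. The cause of these changes was not tested.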
